A study of Mus musculus with 32 samples.

Results

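The genes described here are 42 genes that dividing cells transcribe in S phase, when DNA is copied, and in G2 and M phase, when chromosomes are separated. They were chosen by name. The rule uses no measured value, although the list was drawn up with earlier results of these data known. Each matched 1 row, by Ensembl gene identifier, among the 41687 rows of a table of RNA sequencing counts from adult mouse lung. All 42 passed the filter on low counts in each of 3 library preparations. The lowest count of any of them in any library was 8, for Ccne1.

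Entry into S phase is driven by E2F transcription factors and cyclin E. CDC6 and CDT1 load the MCM helicase onto origins of replication, CDC45 joins it at the fork, and PCNA is the clamp that holds the DNA polymerase. Ribonucleotide reductase (Rrm1, Rrm2) and thymidylate synthase (Tyms) supply nucleotides. Cyclins A2, B1 and B2 with CDK1 then drive mitosis, in which Aurora and Polo-like kinases, the spindle checkpoint, kinesins and the anaphase-promoting complex act in turn. The adult lung turns over slowly, so few of its cells are in cycle at any time, and these can be epithelial, endothelial, stromal or immune cells. BMAL1, whose gene has the symbol Arntl, binds E-box sequences and drives transcription in the circadian clock.

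The study compared Bmal1 knock-out (KO) with wild-type (WT) C57b/6 mice, 8 to 18 weeks of age, 6 of each genotype, all labelled female. RNA of each lung was sequenced after pull-down of ribosomal RNA (RiboZero, n = 6 per genotype) and after selection of polyadenylated RNA (PolyA, n = 6 per genotype). RNA of the 8 mice numbered 3 to 6 was also sequenced with neither step (NoSelect, n = 4 per genotype). RiboZero and PolyA used 200 ng of RNA and NoSelect 15 ng, and a NoSelect library combined 6 preparations. The labels name no promoter, Cre driver or construct for the KO and give no time of day of tissue collection. The 3 preparations came from the same mice, so they are repeated measurements of those animals and do not add animals.

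Total counts ran from 11638590 to 25801192 in RiboZero, from 29924271 to 41548759 in PolyA and from 74979759 to 115059730 in NoSelect. Levels are in CPM (counts per 1000000 of the library's total after TMM scaling). The scale was set within each preparation, so CPM are compared within a preparation. Only where preparations are compared with each other was the scale set over both together. Arntl transcript lay at 34.1 to 42.6 CPM in WT and 19.1 to 23.6 CPM in KO in RiboZero. In NoSelect it lay at 9.70 to 10.4 CPM in WT and 5.81 to 6.58 CPM in KO, also without overlap. In PolyA WT libraries, at 31.9 to 37.9 CPM, overlapped with KO libraries, at 26.8 to 32.4 CPM. The NoSelect library of KO mouse 6 is labelled liver, but its 7 hepatocyte markers summed to 6.46 CPM and its 6 alveolar type 2 cell markers to 3461 CPM. KO mouse 6 is labelled female, but its 3 libraries held 2195 to 2967 counts of the Y-linked gene Ddx3y, against 0 in all other libraries, and 2 to 16 counts of Xist, against at least 13590. For the edgeR calls of the 42 genes and of the other cell cycle lists, counts without KO mouse 6 are given as well. The medians and signs of the 42 genes, their library levels and their correlations are given with this mouse included.

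Promoters are shown first because many cell cycle genes carry the same short elements just upstream of their start. RefSeq promoter sequences (GRCm38.p6) were found for 34 of the 42 genes. The windows printed are the 100 bases before the transcription start, 5′ to 3′ on the gene's strand. Capitals mark the CHR element (TTTGAA or TTCGAA), the CCAAT box (CCAAT) and E2F elements (TTTCGCGC, TTTGGCGC or TTCGCGC) on either strand. The first of the E2F words contains the third, and neighbouring matches can overlap. The genes printed were picked for display, and each of their windows holds a match. The first 5 are genes of mitosis and of the proliferating state and the last 3 are subunits of the MCM helicase.
Ccnb2, chr9:70421555-70421654, minus strand: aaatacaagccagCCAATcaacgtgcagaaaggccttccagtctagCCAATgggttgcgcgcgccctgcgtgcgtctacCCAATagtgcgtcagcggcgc
Cenpf, chr1:189688087-189688186, minus strand: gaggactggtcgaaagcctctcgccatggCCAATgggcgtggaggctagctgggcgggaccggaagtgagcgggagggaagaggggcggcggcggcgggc
Top2a, chr11:99024190-99024289, minus strand: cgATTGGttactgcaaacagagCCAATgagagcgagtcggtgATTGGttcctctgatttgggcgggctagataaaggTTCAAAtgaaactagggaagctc
Kif11, chr19:37376282-37376381, plus strand: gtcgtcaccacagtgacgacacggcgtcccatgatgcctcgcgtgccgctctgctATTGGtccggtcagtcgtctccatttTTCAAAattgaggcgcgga
Mki67, chr7:135716380-135716479, minus strand: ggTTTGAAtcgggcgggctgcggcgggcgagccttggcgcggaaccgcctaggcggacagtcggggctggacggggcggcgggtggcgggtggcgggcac
Mcm2, chr6:88898781-88898880, minus strand: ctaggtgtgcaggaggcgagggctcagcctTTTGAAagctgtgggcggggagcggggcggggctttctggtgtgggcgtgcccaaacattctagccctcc
Mcm5, chr8:75109409-75109508, plus strand: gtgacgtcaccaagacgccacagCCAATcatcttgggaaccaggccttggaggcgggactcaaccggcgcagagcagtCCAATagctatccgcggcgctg
Mcm6, chr1:128359706-128359805, minus strand: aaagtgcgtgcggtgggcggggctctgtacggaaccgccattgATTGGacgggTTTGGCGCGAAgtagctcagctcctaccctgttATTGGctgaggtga

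In the 250 bases before the start, a CCAAT box stood in 26 of the 34 promoters (76.5%), against 34.5% of all 27025 promoters. That set holds the first start listed for each gene in the RefSeq table. The CHR element stood in 12 of 34 (35.3%), against 17.4% of all. Both mitotic genes (Ccnb2, Cdk1, Top2a, Kif11, Cdc20) and replication genes (Mcm2, Mcm7, Cdc45) held a CHR match. In Ccnb2 that match lay further upstream than the window printed. E2F elements were found in Cdk1, Mcm5 and Mcm6 (8.82%, against 1.70% of all). The E-box CACGTG was found in 1 of 34, Tyms (2.94%, against 6.05% of all). No CHR, CCAAT or E2F match stood in the 250 bases of Birc5, Ccne1, Cdc6, Cdt1, E2f1, Melk, Nusap1 or Tyms. These matches describe the letters of the windows and are not measured binding sites.

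Per kilobase of the longest coding transcript, the highest levels belonged to genes of replication and nucleotide supply. In RiboZero the highest levels were 27.1 ± 0.975 CPM per kb for Pcna, 7.36 ± 0.769 for Mcm7, 6.99 ± 0.556 for Mcm4 and 6.73 ± 0.445 for Rrm1 (SD, n = 12, both genotypes). Mcm7, Mcm4 and Rrm1 lay within their spread of each other. The lowest, Cdc6, Ccne1, Mcm10, E2f8 and Melk, lay between 0.510 and 0.569 CPM per kb and within their spread of each other. Pcna was also highest in PolyA (48.8 ± 2.98 CPM per kb, SD, n = 12) and in NoSelect (6.62 ± 0.458, SD, n = 8). Of the words of 31 bases in their transcripts, more than 10% recur in other genes for 7 of the 42, mostly pseudogenes. These are Ccnb1 (27.7%), Mcm7 (26.8%), Cdc20 (25.5%), Pcna (23.3%), Plk1 (14.8%) and, at lower shares, Pbk and Rrm2, and their counts are less certain for that reason.

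The first comparison asked whether the genes differed between KO and WT lung in each preparation. In PolyA 3 of the 42 fell in KO: Pbk to 56.3% of WT, Ccnb2 to 64.2% and Cenpf to 66.0%. In RiboZero and NoSelect 0 of 42 passed the test. None was called higher in KO in any preparation. A gene was called where edgeR's quasi-likelihood test gave p below 0.05 after Benjamini-Hochberg adjustment over all rows. Among all rows tested, 2.41% were called lower in PolyA, 1.63% in RiboZero and 0.981% in NoSelect, and 1.62%, 1.84% and 1.19% higher. DESeq2 called 8 of 42 lower in PolyA, 2 in RiboZero (Cdc20, Cenpf) and 3 in NoSelect (Ccna2, Cenpf, Tpx2). DESeq2 called 4.37%, 2.92% and 2.51% of all rows lower in the same preparations.

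Log2 fold changes of KO over WT were below 0 for 42 of the 42 genes in PolyA, 38 in RiboZero and 40 in NoSelect, against 50.8%, 50% and 49.8% of all rows. Their median was -0.39 in PolyA, -0.31 in RiboZero and -0.41 in NoSelect, and the medians of all rows were -0.00292, -1.23e-05 and 0.000533. Unadjusted p was under 0.05 with a lower level in KO for 22, 12 and 16 of the 42, in the same order, and for 9.53%, 7.92% and 7.56% of all rows. It was under 0.05 with a higher level in KO for 0 of the 42 in each preparation, against 8.47%, 8.47% and 8.18% of all rows. The NoSelect libraries were also thinned to the depth of the smallest of all 32 libraries. The median there was then -0.17 and 24 genes were below 0, among those of the 42 that still passed the filter on low counts. The number that passed is not given here. Without KO mouse 6, edgeR called 2 of 42 in PolyA (Ccnb2, Pbk) and 0 in RiboZero and NoSelect. The PolyA calls depended on single libraries. Their number was 0 without WT mouse 4, 5 or 6, 1 (Pbk) without KO mouse 1, 2, 3 or 4, 2 without WT mouse 1 or 3, and 4 without WT mouse 2. In bulk lung, fewer cells in cycle and less of these RNAs per cell cannot be told apart.

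**Figure D1:**
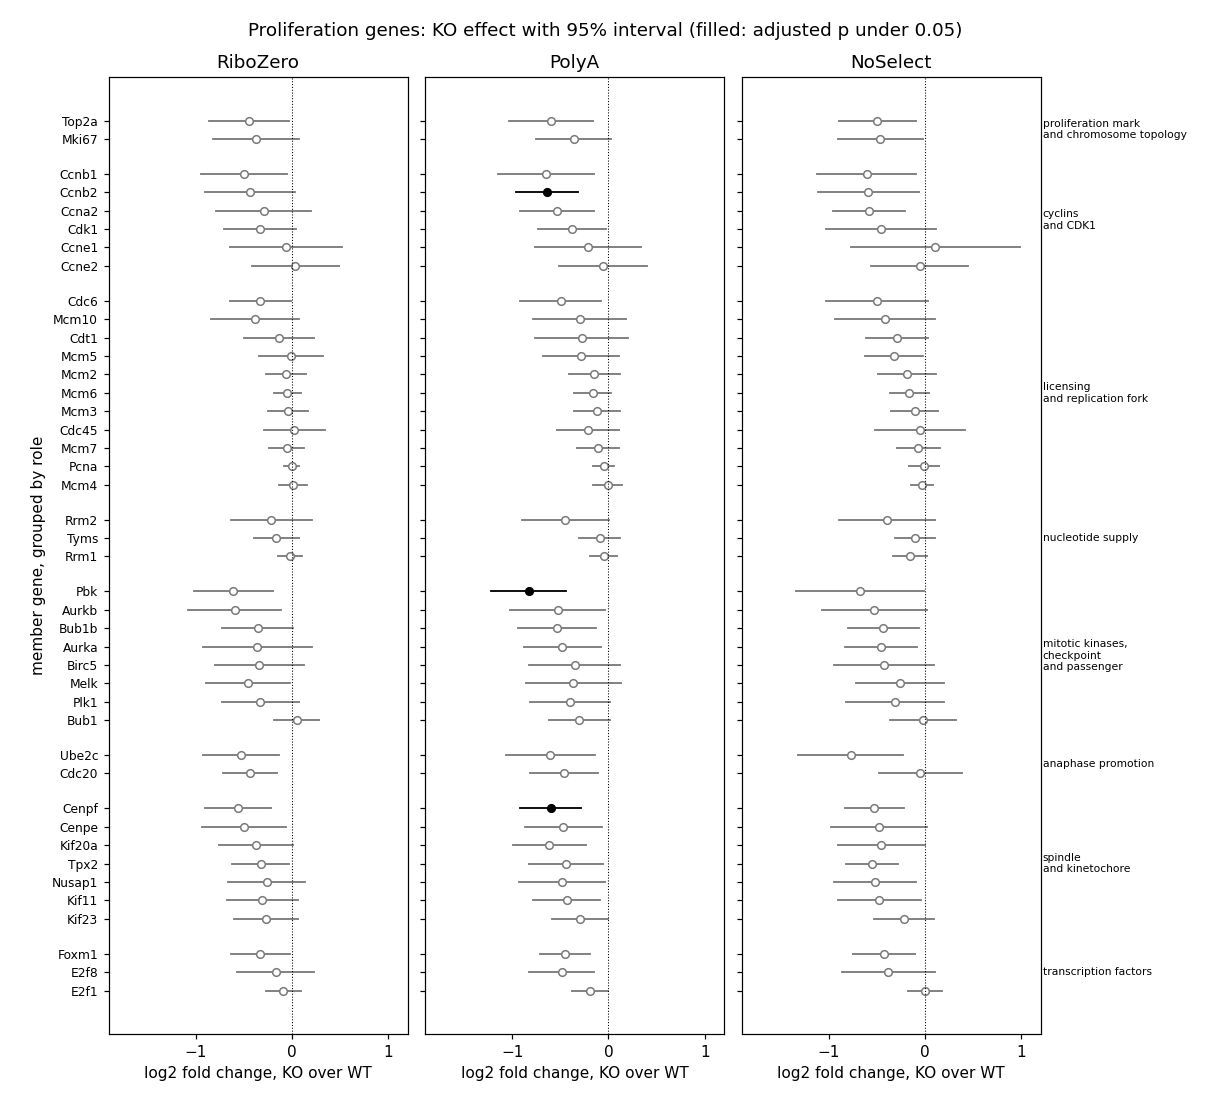
Log2 fold change of KO over WT (x axis) for each of the 42 genes (y axis, grouped by role) in the 3 preparations. Points are the edgeR estimates and lines their 95% intervals, and the filled points are Ccnb2, Pbk and Cenpf in PolyA. All 42 points lie below 0 in PolyA, and Pcna and Mcm4 sit near 0 with short intervals in each panel.

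The 3 called genes act in mitosis. Pbk (chr14:65805837-65817822, plus strand, GENCODE M21 on GRCm38) encodes a kinase of mitotic cells. In PolyA it stood at 2.24, 2.45, 2.93, 3.19, 3.35 and 3.70 CPM in WT mice 1 to 6 and at 1.31, 1.16, 1.64, 1.98, 2.22 and 1.73 CPM in KO mice 1 to 6. Every KO library was below every WT library, with KO mouse 5 next to WT mouse 1. The log2 fold change was -0.83 (SE 0.18, edgeR adjusted p 0.0211). In RiboZero it was -0.61 (SE 0.19, edgeR adjusted p 0.108), and in NoSelect -0.67 (SE 0.29, edgeR adjusted p 0.309), with overlapping groups in both.

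Ccnb2 (chr9:70407692-70421547, minus strand) encodes cyclin B2, an activating subunit of CDK1. Its PolyA levels were 4.98, 3.82, 4.52, 5.23, 5.04 and 6.43 CPM in WT mice 1 to 6 and 3.23, 2.28, 3.43, 2.86, 3.82 and 3.64 CPM in KO mice 1 to 6. WT mouse 2 and KO mouse 5 met at 3.82 CPM, and all other WT libraries were above all KO libraries. The log2 fold change was -0.64 (SE 0.15, edgeR adjusted p 0.0299) in PolyA. The estimates of -0.43 (SE 0.21) in RiboZero and -0.59 (SE 0.23) in NoSelect had edgeR adjusted p of 0.341 and 0.259.

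Cenpf (chr1:189640606-189688086, minus strand) encodes a large protein of the kinetochore, where microtubules attach to chromosomes. Its PolyA levels were 3.46, 3.27, 3.81, 3.67, 4.43 and 5.90 CPM in WT mice 1 to 6 and 2.62, 2.41, 2.61, 2.61, 3.21 and 2.73 CPM in KO mice 1 to 6. The groups did not overlap. Its estimates were close to each other in the 3 preparations, at -0.60 (SE 0.15) in PolyA, -0.56 (SE 0.16) in RiboZero and -0.53 (SE 0.14) in NoSelect. The edgeR adjusted p was 0.0381 in PolyA, 0.0731 in RiboZero and 0.0972 in NoSelect. In PolyA, Cenpf had an adjusted p of 0.0644 without the filter on low counts and 0.0507 without WT mouse 6. Every KO library was also below every WT library for Kif20a and Foxm1 in PolyA, and for Ccna2, Top2a, Tpx2, Nusap1 and Foxm1 in NoSelect. That made 4 of 42 in PolyA, 5 in NoSelect and 0 in RiboZero, against 1.9%, 4.62% and 1.53% of all rows. Kif20a, Ccna2, Tpx2 and Nusap1 were named after their values were seen.

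**Figure D2:**
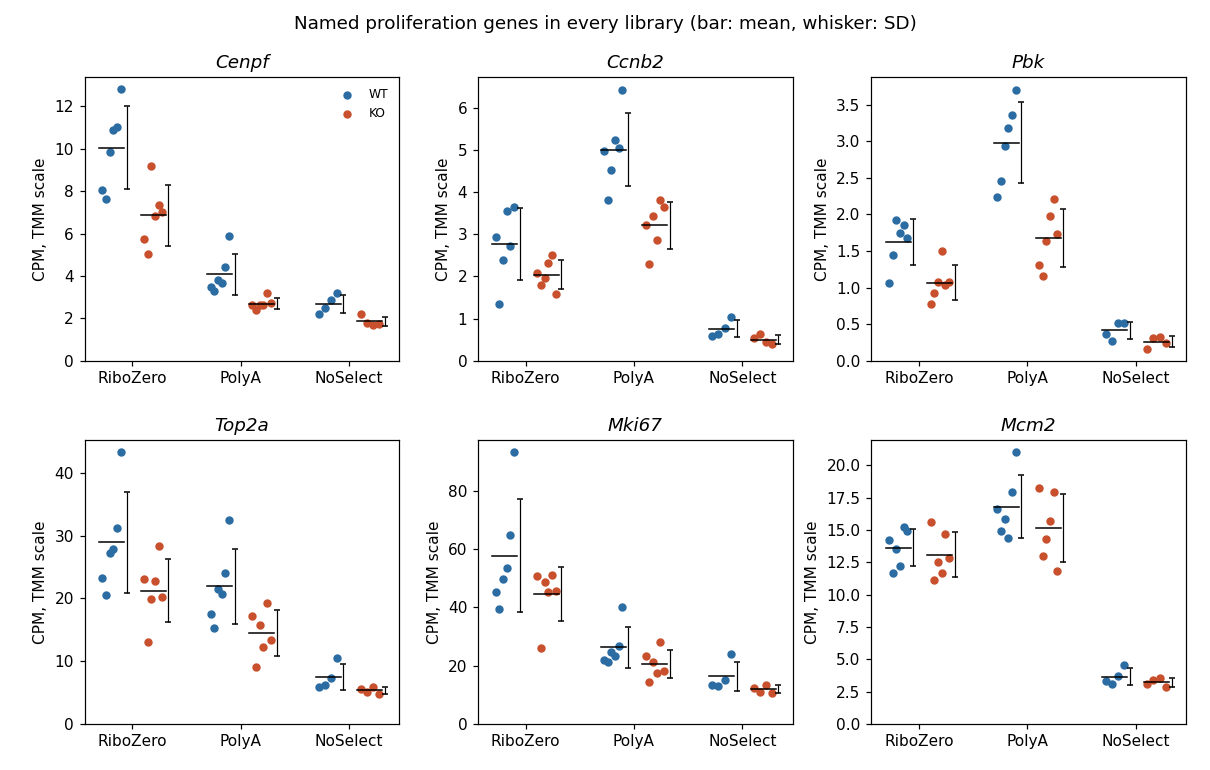
Levels in CPM (y axis, from 0) of 6 of the genes in every library, by preparation and genotype (x axis), with blue points for WT and orange points for KO. Bars are group means and whiskers SD, n = 6 per group in RiboZero and PolyA and n = 4 in NoSelect. In PolyA the WT and KO points of Cenpf and Pbk do not overlap, and those of Mki67 and Mcm2 do.

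Among the remaining mitotic genes, Ube2c and Ccnb1 had the lowest mean estimates. Ube2c encodes the ubiquitin-conjugating enzyme of the anaphase-promoting complex. In NoSelect it stood at 0.472, 0.698, 0.775 and 1.08 CPM in WT mice 3 to 6 and at 0.407, 0.480, 0.427 and 0.454 CPM in KO mice 3 to 6. The KO libraries lay close together at the bottom of the WT range, which KO mouse 4 alone reached. The log2 fold changes of Ube2c were -0.53 (SE 0.18) in RiboZero, -0.61 (SE 0.21) in PolyA and -0.77 (SE 0.24) in NoSelect, with edgeR adjusted p of 0.145, 0.147 and 0.162. Ccnb1, cyclin B1, ranged in PolyA from 2.99 over a median of 3.39 to 6.31 CPM in WT and from 1.52 over 2.75 to 3.14 CPM in KO. In RiboZero, PolyA and NoSelect its log2 fold change was -0.49, -0.65 and -0.60, with edgeR adjusted p of 0.243, 0.147 and 0.243.

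Aurkb, the kinase of the chromosomal passenger complex, ranged in RiboZero from 2.30 over a median of 2.66 to 4.06 CPM in WT and from 1.17 over 1.68 to 2.85 CPM in KO. The groups overlapped through KO mice 4 and 5. In RiboZero, PolyA and NoSelect its log2 fold change was -0.60, -0.53 and -0.52 (edgeR adjusted p 0.188, 0.239 and 0.336). Cdc20, the activator of the anaphase-promoting complex, differed between preparations in its estimate, at -0.44 in RiboZero, -0.46 in PolyA and -0.05 in NoSelect, with edgeR adjusted p of 0.0855, 0.142 and 0.937. The kinases, checkpoint and passenger genes as a group (8 genes) had medians of -0.36, -0.44 and -0.43. Aurka, Birc5, Bub1, Bub1b, Plk1 and Melk, the kinases, survivin and checkpoint genes not yet named, had estimates between -0.45 and 0.05 in RiboZero, -0.53 and -0.30 in PolyA and -0.46 and -0.02 in NoSelect. The spindle and kinetochore genes (7 genes) had medians of -0.32, -0.47 and -0.48, and unadjusted p was under 0.05 for 3, 7 and 5 of them. The motor proteins Kif11, Kif20a and Kif23, the kinesin Cenpe and the microtubule-associated proteins Nusap1 and Tpx2 had estimates between -0.50 and -0.26 in RiboZero, -0.62 and -0.29 in PolyA and -0.55 and -0.22 in NoSelect.

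Cdk1, the kinase that starts mitosis, ranged in PolyA from 6.13 over a median of 6.30 to 10.4 CPM in WT and from 3.96 over 5.71 to 6.71 CPM in KO. KO mice 3 and 5 lay within the WT range. In RiboZero, PolyA and NoSelect the estimate was -0.33, -0.38 and -0.46 (edgeR adjusted p 0.382, 0.233 and 0.437). Ccna2, cyclin A2 of S and G2 phase, had estimates of -0.29, -0.53 and -0.58 (edgeR adjusted p 0.584, 0.122 and 0.130). Ccne1, the other cyclin E gene, had estimates of -0.06, -0.21 and 0.11 with SE of 0.27, 0.25 and 0.39. Ccne2, a cyclin E of the G1 to S transition, had estimates near 0 in all 3, at 0.03, -0.06 and -0.06, with 95% intervals from -0.56 to 0.49 over the 3 preparations.

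Mki67 encodes Ki-67, the protein most used to mark cells in cycle, and Top2a encodes the topoisomerase that untangles replicated chromosomes. Mki67 ranged in RiboZero from 39.4 over a median of 51.7 to 93.3 CPM in WT and from 26.2 over 47.2 to 51.1 CPM in KO. WT mice 4, 5 and 6 stood above every KO mouse, and WT mice 1, 2 and 3 lay among the KO mice, of which mouse 2 was lowest. For Mki67 the estimate was -0.37 in RiboZero, -0.36 in PolyA and -0.46 in NoSelect (edgeR adjusted p 0.415, 0.318 and 0.293). For Top2a it was -0.44, -0.60 and -0.49 (edgeR adjusted p 0.264, 0.125 and 0.224). In NoSelect Top2a stood at 5.90, 6.24, 7.25 and 10.5 CPM in WT mice 3 to 6 and at 5.61, 5.05, 5.89 and 4.73 CPM in KO mice 3 to 6, without overlap but with KO mouse 5 next to WT mouse 3.

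Genes of replication had estimates nearer to 0. The 11 licensing and fork genes had medians of -0.05 in RiboZero, -0.17 in PolyA and -0.16 in NoSelect, and the 3 nucleotide supply genes -0.16, -0.09 and -0.16. Pcna ranged in PolyA from 68.7 over a median of 76.2 to 79.2 CPM in WT and from 68.2 over 70.4 to 79.7 CPM in KO, which overlap almost fully. Its 95% intervals were -0.08 to 0.08 in RiboZero, -0.16 to 0.06 in PolyA and -0.17 to 0.15 in NoSelect. Mcm4 had intervals of -0.14 to 0.15, -0.16 to 0.14 and -0.14 to 0.09. Both genes are described here because they had the highest mean estimates of the 42.

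Mcm2 ranged in PolyA from 14.4 over a median of 16.2 to 21.0 CPM in WT and from 11.8 over 15.0 to 18.3 CPM in KO. The estimates were -0.06 in RiboZero, -0.15 in PolyA and -0.19 in NoSelect, with edgeR adjusted p of 0.833, 0.572 and 0.553. Mcm5 had estimates of -0.01, -0.28 and -0.32, with edgeR adjusted p of 0.989, 0.450 and 0.281. Within the licensing and fork genes, Cdc6 and Mcm10, which act at loading and firing of origins, had the lowest estimates. These were -0.33 and -0.39 in RiboZero, -0.50 and -0.30 in PolyA and -0.50 and -0.41 in NoSelect. Cdc6 and Mcm10 were named after their values were seen, and neither passed the edgeR test (adjusted p from 0.195 to 0.524). The other licensing and fork genes, Cdt1, Cdc45, Mcm3, Mcm6 and Mcm7, had estimates between -0.14 and 0.03 in RiboZero, -0.28 and -0.11 in PolyA and -0.29 and -0.05 in NoSelect. Rrm2, the subunit of ribonucleotide reductase made for S phase, had estimates of -0.21, -0.45 and -0.40, against -0.02, -0.05 and -0.16 for its partner Rrm1. Tyms, the gene with the E-box match, had estimates of -0.16, -0.09 and -0.11 (edgeR adjusted p 0.517, 0.693 and 0.641). The difference between replication and mitosis genes was not tested, since genes are not replicates.

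Of the transcription factors, Foxm1, an activator of G2 and M phase genes, ranged in PolyA from 8.11 over a median of 8.80 to 12.8 CPM in WT and from 6.18 over 6.77 to 7.91 CPM in KO. The groups did not overlap. Its log2 fold change was -0.45 (SE 0.12) in PolyA, with an edgeR adjusted p of 0.0598, and -0.33 and -0.42 in RiboZero and NoSelect (edgeR adjusted p 0.261 and 0.191). E2f1, an activator of S phase genes, had estimates of -0.09, -0.19 and 0.00 in RiboZero, PolyA and NoSelect (edgeR adjusted p 0.658, 0.276 and 0.990). E2f8, an atypical E2F that represses, had estimates of -0.17, -0.49 and -0.38 (edgeR adjusted p 0.720, 0.110 and 0.439).

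The next question was how the genes varied from mouse to mouse. The level of a library was taken as the median over the 42 genes of the log2 CPM minus that gene's mean over the libraries of the preparation. WT libraries had levels of 0.13 ± 0.27 in RiboZero and 0.19 ± 0.29 in PolyA (SD, n = 6) and 0.15 ± 0.27 in NoSelect (SD, n = 4). KO libraries had levels of -0.11 ± 0.19, -0.19 ± 0.25 (SD, n = 6) and -0.13 ± 0.14 (SD, n = 4). The groups overlapped in each preparation.

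WT mouse 6 had the highest level in all 3 preparations, at 0.62 in RiboZero, 0.73 in PolyA and 0.52 in NoSelect, and WT mouse 5 came next at 0.26, 0.33 and 0.18. KO mouse 2 had the lowest level in RiboZero (-0.44) and PolyA (-0.64) and has no NoSelect library here. KO mouse 6 had the lowest level in NoSelect (-0.30). All other libraries lay between -0.26 and 0.07. In PolyA, 42 of 42 genes of WT mouse 6 and 41 of 42 of WT mouse 5 were above their mean, against 1 of 42 in KO mouse 2. Without WT mouse 6 the median log2 fold change of the 42 genes was -0.18 in RiboZero, -0.24 in PolyA and -0.23 in NoSelect, and 32, 40 and 37 of 42 genes were below 0.

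**Figure D3:**
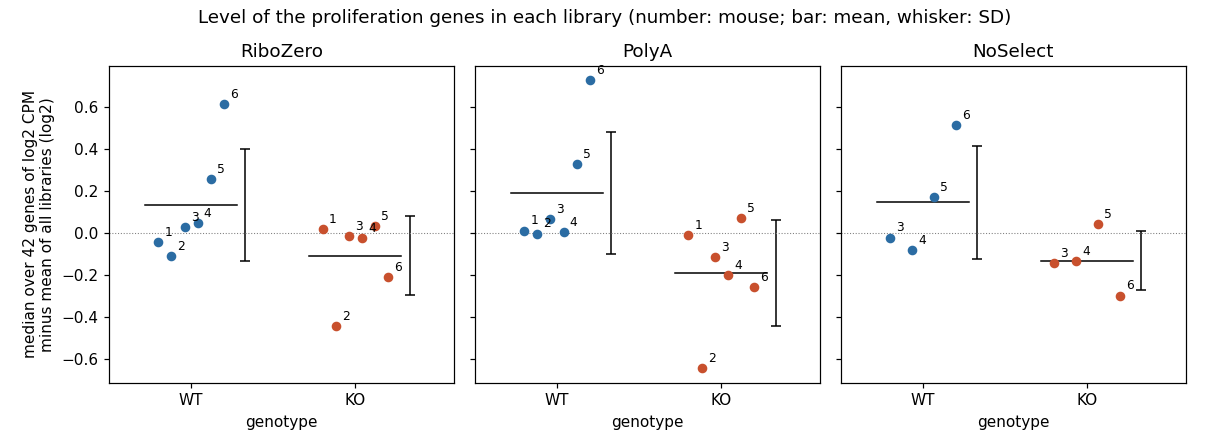
Level of the 42 genes in each library (y axis, median log2 CPM minus the gene's mean over the preparation) by genotype (x axis) in the 3 preparations, with the mouse number beside each point. Bars are means and whiskers SD. WT mouse 6 is the highest point in each panel, at 0.62, 0.73 and 0.52, and most other mice of both genotypes overlap around 0.

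**Figure D4:**
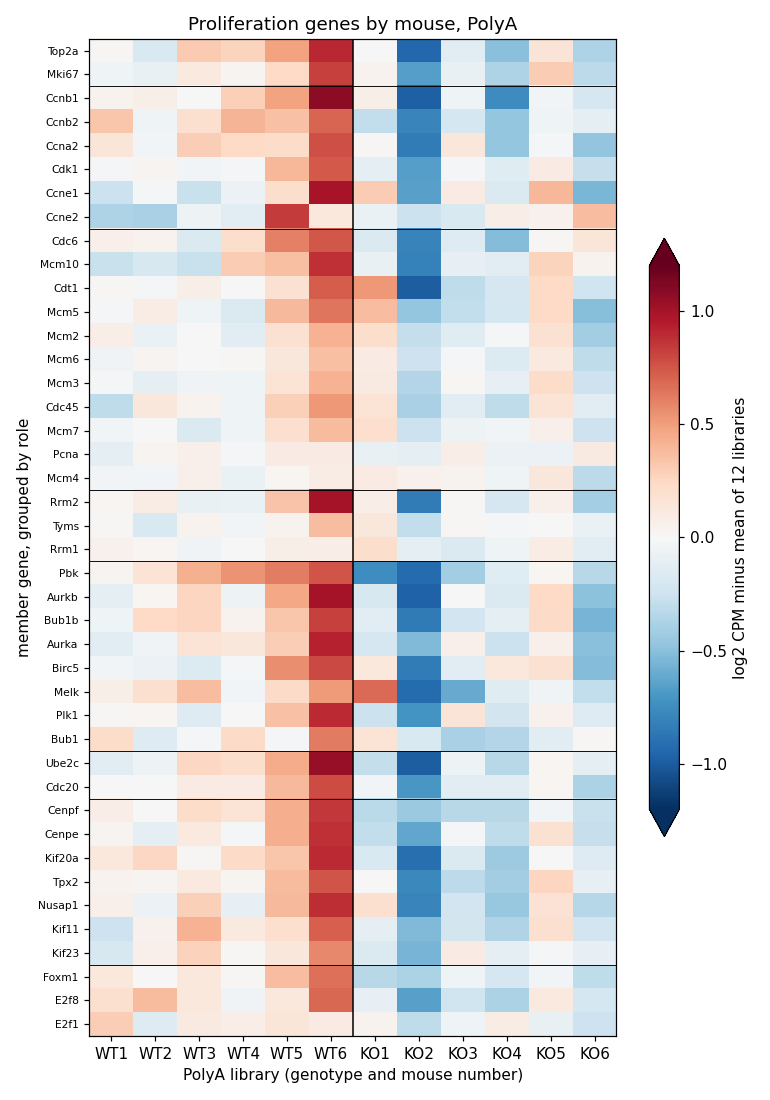
Log2 CPM minus the mean of the 12 PolyA libraries (colour) for the 42 genes (rows, grouped by role) in each library (columns). WT mouse 6 is above the mean for 42 genes and KO mouse 2 below it for 41. Pcna, Mcm4 and Rrm1 have pale colours in all columns.

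The genes moved together among mice. After removal of the group means, the median correlation over the 861 pairs of genes was 0.61 across the 12 RiboZero libraries, 0.74 across the 12 PolyA libraries and 0.65 across the 8 NoSelect libraries. Among pairs drawn from a regular sample of all rows the median was -0.0023, -0.00054 and -0.0022. With WT mouse 6 left out of the correlations the values were 0.49, 0.64 and 0.49. The WT group means removed still included that mouse, which leaves a shared offset in the other WT libraries and can raise these values. The least alike were Bub1 in RiboZero, E2f1 in PolyA and Pcna in NoSelect. Outside the list, the rows most like the mean of the genes over the 3 preparations were Pclaf, Uhrf1, Racgap1, Hmmr and Dck, with mean correlations of 0.96, 0.95, 0.93, 0.93 and 0.93. Libraries of a preparation share their scale, and these correlations are descriptions with no test.

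Markers of immune cells, many of which divide, also varied among the mice. The 7 T cell markers, all detected, summed in PolyA to 60.1 to 153 CPM in WT and 37.4 to 146 CPM in KO, with WT mouse 6 highest and KO mouse 2 lowest. In RiboZero KO mouse 1 was highest at 72.4 CPM, next to WT mouse 6 at 71.2 CPM, and KO mouse 2 lowest at 20.2 CPM, while the proliferation level of KO mouse 1 was 0.02. In NoSelect WT mouse 6 was highest at 22.8 CPM and KO mouse 6 lowest at 6.74 CPM. The 7 B cell and germinal centre markers, all detected, ran in PolyA from 50.8 to 185 CPM in WT and from 28.8 to 260 CPM in KO. KO mouse 1, the highest there, had a proliferation level of -0.01 in PolyA. The 5 plasma cell markers, all detected, summed in PolyA to 798 to 1865 CPM in WT, with WT mouse 6 highest, and 551 to 1671 CPM in KO. The 8 thymocyte markers summed to 11.3 to 25.3 CPM in RiboZero, and Ptcra among them was at 0 in every RiboZero library. The 5 NK cell markers, all detected, summed in PolyA to 13.9 to 32.6 CPM in WT and 12.5 to 22.3 CPM in KO. In RiboZero, PolyA and NoSelect the median log2 fold changes were -0.13, -0.28 and -0.55 for T cell markers, -0.31, -0.41 and -0.91 for plasma cell markers, and -0.27, -0.35 and -0.49 for NK cell markers. For B cell and germinal centre markers they were 0.15, 0.28 and -0.18. By edgeR 0 genes of these 4 lists were called, and unadjusted p was under 0.05 for 1 NK cell gene in each preparation and 1 T cell gene in NoSelect, all lower in KO. The 5 neutrophil markers, genes of a cell that no longer divides, had median log2 fold changes of 1.17, 1.27 and 1.27 in RiboZero, PolyA and NoSelect, and 1 of them, Retnlg in PolyA, rose. For alveolar macrophage markers the medians were -0.08, -0.15 and -0.14, and for alveolar type 2 cell markers -0.12, -0.28 and -0.10, in the same order. Medians were 0.12, 0.15 and 0.10 for capillary endothelial, 0.27, 0.24 and 0.29 for club cell and 0.34, 0.32 and 0.31 for ciliated cell markers. Those of alveolar type 1 cells (0.02, -0.01 and 0.04) and fibroblasts (0.12, -0.01 and 0.10) differed in sign. The part of any of these cells in the levels of the 42 genes was not tested.

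Other cell cycle genes were read from the same fits. Of 53 further G2 and M phase genes, 53 were tested in PolyA and 51 in RiboZero and NoSelect. In PolyA 6 of 53 fell (Cdc25b, Ckap2, Ckap2l, Mastl, Prc1, Troap), and Cdc25b alone was called in RiboZero and in NoSelect, with none higher in any. Of all rows, 2.41% were called lower in PolyA, 1.63% in RiboZero and 0.981% in NoSelect. Without KO mouse 6 the count in PolyA was 3 (Cdc25b, Ckap2, Prc1), with 2 in RiboZero (Cdc25b, Ckap2) and 1 in NoSelect (Cdc25b). Their median log2 fold changes were -0.30 in RiboZero, -0.37 in PolyA and -0.31 in NoSelect. Of 40 further S phase genes, 39 to 40 were tested, 0 were called by edgeR, with or without KO mouse 6, or by DESeq2, and the medians were -0.08, -0.11 and -0.10. Unadjusted p was under 0.05 with a lower level for 4, 5 and 2 of them and with a higher level for 1, 0 and 1. The shares of all rows were 7.92%, 9.53% and 7.56% lower and 8.47%, 8.47% and 8.18% higher.

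Cdc25b encodes a phosphatase that activates CDK1. It was 17.4 to 22.3 CPM in WT and 8.81 to 12.5 CPM in KO in RiboZero, 24.3 to 32.8 and 11.5 to 18.2 CPM in PolyA, and 5.15 to 6.50 and 2.89 to 3.96 CPM in NoSelect. No preparation had overlap between the groups. Its log2 fold changes were -0.80 (SE 0.09), -0.91 (SE 0.11) and -0.75 (SE 0.11), with edgeR adjusted p of 0.000319, 0.000485 and 0.0113. Prc1, which bundles microtubules of the central spindle, fell in PolyA, with a log2 fold change of -0.78 (SE 0.16, edgeR adjusted p 0.0144). Ckap2, a spindle protein, fell there by 0.80 (SE 0.13, edgeR adjusted p 0.00409). In RiboZero and NoSelect the estimates were -0.57 and -0.62 for Prc1 and -0.76 and -0.61 for Ckap2, with edgeR adjusted p from 0.0529 to 0.201.

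Genes that hold or release the cycle gave few calls. The list of 22 cell cycle brakes had 20, 21 and 20 genes tested in RiboZero, PolyA and NoSelect. Estimates were above 0 for 14, 16 and 13 of them, with medians of 0.06, 0.07 and 0.04. A higher level had an unadjusted edgeR p under 0.05 for 6, 2 and 2, and a lower level for 2, 2 and 1. Over all rows the shares were 8.47%, 8.47% and 8.18% higher and 7.92%, 9.53% and 7.56% lower. Wee1, which inhibits CDK1, fell in PolyA, with a log2 fold change of -0.76 (SE 0.19, edgeR adjusted p 0.0457). It had estimates of -0.54 in RiboZero and -0.38 in NoSelect (edgeR adjusted p 0.145 and 0.299). Among the 22 cell cycle brakes, Cdkn1c rose in NoSelect (log2 fold change 0.48, SE 0.09, edgeR adjusted p 0.0388). Its estimates were 0.32 in RiboZero and 0.36 in PolyA (edgeR adjusted p 0.158 and 0.0894). Cdkn1b, named after its value was seen, rose in RiboZero (log2 fold change 0.21, SE 0.05, edgeR adjusted p 0.0437), with 0.19 in PolyA and 0.24 in NoSelect (edgeR adjusted p 0.0680 and 0.101). Cdkn1a, which encodes p21, had estimates of 0.02, 0.05 and -0.05 with SE of 0.34, 0.33 and 0.28. Small changes of Cdkn1a in either direction were not detectable at this spread. Of 9 G1 cyclins, CDKs and related genes, Myc fell in NoSelect by 0.75 (SE 0.13, edgeR adjusted p 0.0264), with estimates of -0.50 in RiboZero and -0.62 in PolyA (edgeR adjusted p 0.171 and 0.118). Ccnd1, cyclin D1, had estimates of -0.24, -0.22 and -0.15 (edgeR adjusted p 0.0576, 0.215 and 0.228). Gas1, from a list of 6 quiescence genes, fell in RiboZero and PolyA by 0.52 and 0.51 (edgeR adjusted p 0.0159 and 0.0293). In NoSelect Gas1 had an estimate of -0.37 (edgeR adjusted p 0.105). With all mice, edgeR called 1.63%, 2.41% and 0.981% of all rows lower in RiboZero, PolyA and NoSelect, and 1.84%, 1.62% and 1.19% higher. Without KO mouse 6, the calls of Gas1 in PolyA and Cdkn1c in NoSelect were lost, and Ccnd1 in RiboZero and Cdkn1b in NoSelect were called. Of 65 replication-dependent histone genes, 54, 17 and 54 were tested in RiboZero, PolyA and NoSelect. By edgeR 0 were called (without KO mouse 6, 1 higher in RiboZero and in PolyA, Hist1h2bq) and by DESeq2 1 higher, 1 higher and 3 lower. Their medians differed in sign, at -0.17, 0.20 and -0.35. Unadjusted p was under 0.05 for 2 higher in RiboZero, 2 higher in PolyA and 11 lower in NoSelect. The shares of all rows were 8.47% higher in RiboZero and in PolyA and 7.56% lower in NoSelect.

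The KO estimates of the 42 genes were then compared between preparations, as an interaction of genotype and preparation. By edgeR 0 of 42 were called in each of the 3 comparisons, as were 0% of all rows, and unadjusted p was under 0.05 for 0 of 42, against 1.82%, 2.24% and 1.39% of all rows for PolyA with RiboZero, PolyA with NoSelect and RiboZero with NoSelect. DESeq2 also called 0 of 42 in each. With the mouse as a block, which the shared animals allow, edgeR again called 0 of 42, against 0.00551%, 0.00532% and 0.00544% of all rows. Unadjusted p was then under 0.05 for 1 gene in each comparison, against 5.18%, 8.28% and 3.97% of all rows. In that fit Cdc20 had a difference of -0.44 (SE 0.11) between PolyA and NoSelect, with an edgeR adjusted p of 0.553. The genes called in PolyA and not in RiboZero or NoSelect were thus not shown to differ between preparations. Without KO mouse 6 the interaction called 0 of 42 as well.

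The last comparison asked how the preparation itself set the level of these genes, over both genotypes, with a call where the adjusted p was below 0.05 and the levels differed by 1 or more on the log2 scale. Against RiboZero, 3 of 42 were lower in PolyA (Cenpf, Mki67, Cenpe), and 0 were higher, where 16.6% of all rows were called lower and 7% higher. Against NoSelect the same 3 genes were lower and 0 higher, with 15.1% and 10% of all rows. With no minimum size, 12 of 42 were higher and 11 lower in PolyA than in RiboZero, and 14 higher and 9 lower than in NoSelect. Of all rows, 81.1% and 79.1% passed in either direction. With the mouse as a block the counts were 17 and 15 against RiboZero (87.2% of all rows) and 18 and 11 against NoSelect (82.8%). Between RiboZero and NoSelect 0 of 42 were called by edgeR or DESeq2, against 1.74% of rows higher and 2.56% lower. With no minimum size, 5 of 42 were higher and 5 lower in RiboZero, against 45.9% of all rows in either direction. The fits with no block, in all 3 comparisons, ignore that the libraries come from the same mice. With the mouse as a block, 16 of 42 were higher and 5 lower in RiboZero than in NoSelect, against 55.5% of all rows.

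CPM in this paragraph were scaled over the PolyA and RiboZero libraries together, so they differ from the values given earlier. Cenpf stood at 3.01 ± 0.861 CPM in PolyA and 9.50 ± 2.63 CPM in RiboZero (SD, n = 12), a log2 fold change of -1.66 (SE 0.11, edgeR adjusted p 4.12e-13). Mki67 stood at 20.8 ± 5.58 and 57.5 ± 18.0 CPM (SD, n = 12), a log2 fold change of -1.46 (SE 0.14, edgeR adjusted p 8.33e-10). Cenpe, the kinesin of the kinetochore, stood at 2.93 ± 0.856 and 7.25 ± 2.44 CPM (SD, n = 12), a log2 fold change of -1.30 (SE 0.14, edgeR adjusted p 4.85e-09). Against NoSelect the log2 fold changes were -1.56 for Cenpf, -1.39 for Mki67 and -1.17 for Cenpe. Between RiboZero and NoSelect they were 0.06, 0.03 and 0.09, with edgeR adjusted p of 0.724, 0.891 and 0.673.

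These 3 genes have the longest transcripts among the 42, at 11130 bases for Cenpf, 10061 for Mki67 and 7910 for Cenpe, and Top2a comes next at 5221 bases. Across the 42 genes, the log2 fold change of PolyA over RiboZero had a Pearson correlation of -0.76 and a Spearman correlation of -0.67 with the logarithm of transcript length. Without the 3 longest the values were -0.55 and -0.59. For PolyA over NoSelect the values were -0.79 and -0.72, and for RiboZero over NoSelect 0.05 and -0.08. These are correlations across genes, which are not independent replicates. The relation was not particular to these genes. Of 875 protein-coding rows with transcripts at least as long as that of Cenpe, 67.5% were called lower in PolyA than in RiboZero, against 9.21% of the 14196 shorter rows.

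**Figure D5:**
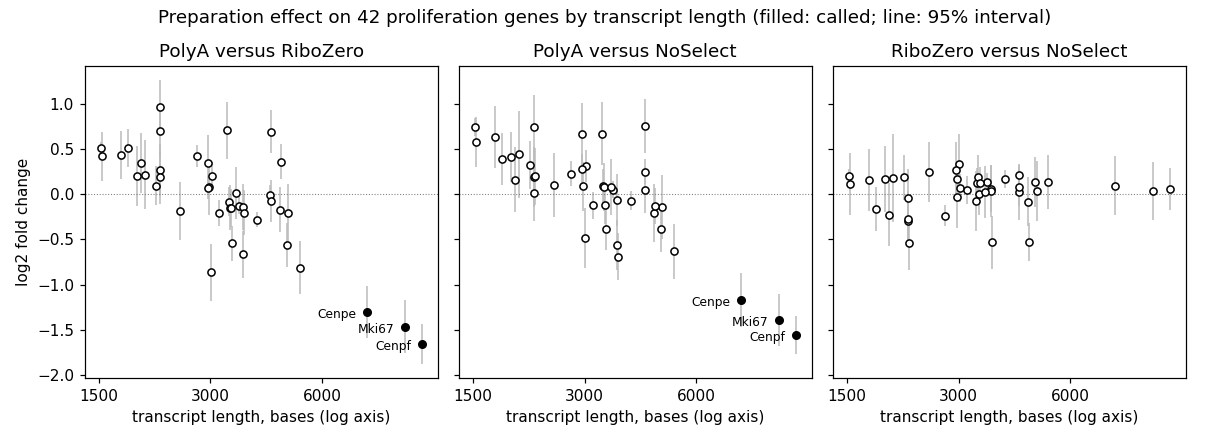
Log2 fold change between preparations (y axis) against the length of the longest coding transcript (x axis, log scale) for the 42 genes, in the 3 comparisons. Points are edgeR estimates and lines 95% intervals, and filled points are called. Cenpe, Mki67 and Cenpf lie below -1 at the right of both PolyA panels and near 0 in the panel of RiboZero versus NoSelect.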

How the data were processed

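Lung RNA of 12 mice was sequenced as 32 libraries. The deposited table holds expected counts, that is, counts estimated by Salmon 1.4.0, per the submitters' processing notes, which also name UMI-tools 1.1.1 and GRCm38. Whether reads were deduplicated by their molecular identifiers is not given in the sources used here. Of the values, 12.8% were not whole. Counts were rounded. The table has 41687 rows, of which 37649 have a gene symbol. The 42 genes, the other lists and the rules were chosen with earlier results of these data known.

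Each preparation had its own KO against WT fit, made with edgeR 4.0.16 in R 4.3.3 (TMM, filterByExpr, glmQLFit, glmQLFTest), genotype being the only term, and p-values were adjusted over all rows tested. Preparations were compared with genotype as a covariate. The fits were tested on simulated counts. DESeq2 1.42.0, other filters and scalings, thinning, mouse blocks and omission of single libraries were alternatives. Log2 CPM used a prior count of 2. Genes with a call, a fixed representative of each role and the genes with the 3 highest and 3 lowest mean estimates were described one by one. Values of every library are printed for Pbk, Ccnb2, Cenpf, Ube2c and Top2a, in a single preparation each. Ranges, intervals or estimates are printed for the rest. Libraries of one mouse pair across preparations: their deviations from group means correlated at 0.373 to 0.723 between RiboZero and PolyA, 0.355 to 0.588 between PolyA and NoSelect and 0.288 to 0.471 between RiboZero and NoSelect. WT and KO mice of one number come from separate animals. Figures were drawn with matplotlib 3.10.9.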

Additional observations from a re-analysis of the deposited data

Results flagged for a closer look

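Among 114 groups of libraries tested with Dixon's ratio, 9 held a library far from the others, and chance flags about 1 group in 20. Of these, 6 were WT mouse 6 as the highest of the WT libraries, and the next values given are those of the next WT library. It had 40.1 CPM of Mki67 in PolyA (next 26.8), 6.31 CPM of Ccnb1 in PolyA (next 4.18), 14.1 CPM of Rrm2 in PolyA (next 8.93) and 2.52 CPM of Rrm2 in NoSelect (next 1.45). It also had 4.06 CPM of Aurkb (next 2.89) and 27.7 CPM of Mcm4 (next 25.2) in RiboZero, where KO mouse 1 stood higher for Mcm4 at 28.6 CPM. KO mouse 2 had the lowest Mki67 among KO libraries in RiboZero, 26.2 CPM (next 45.2). KO mouse 3 had the highest Cenpf among KO libraries in NoSelect, 2.19 CPM (next 1.77). WT mouse 5 had the highest Ccne2 among WT libraries in PolyA, 2.47 CPM (next 1.51).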

How the results depend on the processing

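The number of rows called in KO against WT was 976, 1355 and 878 in RiboZero, PolyA and NoSelect with DESeq2, with 2, 8 and 3 of the 42 genes. One fit of all 32 libraries called 891 and 1564 rows in RiboZero and PolyA, with 1 and 5 of the genes. Mice 3 to 6 alone gave 255 rows in RiboZero and 1 gene (Pbk) in PolyA. In NoSelect, requiring at least 10 counts in every library or keeping rows with a gene identifier called 1 gene (Tpx2) each. Thinning NoSelect gave 142 rows, a median of -0.17 and 24 genes below 0, with fewer reads by construction. That median and the 24 cover only genes that still passed the filter on low counts after thinning. Leaving out one library gave 380 to 644 rows and 0 to 1 genes in RiboZero, where the 1 was Cenpf without WT mouse 2 or KO mouse 3. It gave 442 to 1066 rows and 0 to 4 genes in PolyA, and 148 to 472 rows and 0 genes in NoSelect. The adjusted p of edgeR and DESeq2 over all alternatives in PolyA ran from 0.000603 to 0.0563 for Pbk, 0.00138 to 0.0710 for Ccnb2 and 0.00462 to 0.0992 for Cenpf.

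With the replicate block on the mouse number, KO against WT gave 372 rows and 1 gene (Cenpf) in RiboZero and 103 rows in NoSelect. WT and KO mice share only a number: their deviations correlated at -0.082 to 0.165 in RiboZero, -0.128 to 0.230 in PolyA and -0.054 to 0.116 in NoSelect, and 2 of 6, 2 of 6 and 2 of 4 correlated best with their own number. With the replicate block on the mouse, the interactions gave 1 row in each of the 3 comparisons of preparations, and DESeq2 gave 11 for PolyA and RiboZero, 13 for PolyA and NoSelect and 9 for RiboZero and NoSelect. Between preparations, at least 10 counts in every library left 2560, 2902 and 301 rows, in the same order, and rows with a gene identifier gave 466 for RiboZero and NoSelect. For PolyA and RiboZero, mice 3 to 6 alone added Ube2c as the 1 gene higher in PolyA.

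Signs turned only for genes with no call in that preparation. Thinned, these were Mcm5 at 0.020 in RiboZero, Ccne2 at 0.069 and Mcm4 at 0.10 in PolyA, and Cdk1 at 0.15, Cdc20 at 0.66 and E2f1 at -0.16 in NoSelect. Without the filter Pcna was 0.0027 in RiboZero and Mcm4 0.0018 in PolyA, and Mcm4 was 0.025 in the fit of all libraries. Mice 3 to 6 gave Ccne2 -0.044, Mcm4 -0.042 and Cdkn1a -0.035 in RiboZero and Cdkn1a -0.046 in PolyA, and DESeq2 gave E2f1 -0.0015 in NoSelect. Leaving out one library, the RiboZero ranges were -0.075 to 0.10 for Mcm5, -0.076 to 0.15 for Ccne2, -0.018 to 0.014 for Pcna, -0.033 to 0.059 for Mcm4 and -0.18 to 0.14 for Cdkn1a. In PolyA they were -0.13 to 0.17 for Ccne2, -0.028 to 0.054 for Mcm4 and -0.13 to 0.17 for Cdkn1a. In NoSelect they were -0.17 to 0.15 for Cdc20, -0.021 to 0.043 for E2f1, -0.20 to 0.065 for Ccne2, -0.050 to 0.040 for Pcna, -0.057 to 0.0037 for Mcm4, -0.076 to 0.070 for Mastl and -0.29 to 0.15 for Cdkn1a. Apart from effects of construction, the causes were not tested. The median count of the 42 genes was 85.5 in RiboZero, 196.5 in PolyA and 111 in NoSelect, which also has 4 mice per genotype against 6.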
